A study of Mus musculus with 36 samples.

Results

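Alcohol dehydrogenases (Adh) and aldehyde dehydrogenases (Aldh) carry out consecutive oxidations, from an alcohol to an aldehyde and from the aldehyde to a carboxylic acid. In the liver they clear ethanol and acetaldehyde, convert retinol to retinoic acid, and turn omega-hydroxy fatty acids, which are made by Cyp4a enzymes, into dicarboxylic acids. The mRNA of 10 genes was followed here: Adh1, Adh4, Adh5, Adh7, Aldh1a1, Aldh1a7, Aldh2, Aldh3a2, Aldh1b1 and Aldh9a1. They were taken as every probe on the array whose gene name or accession is one of these symbols. This gave 14 probes, of which 13 are in the authors' processed table, and all 10 genes have at least 1 probe among the 13042 genes of that table.

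Liver RNA of 36 male adult C57BL/6J mice was hybridised on Agilent whole-mouse genome arrays, 12 mice in each of 3 groups. All mice ate a mild-high-fat diet with 30 energy % fat during a 3 week adaptation and fasted for at least 2 h before sacrifice. Strain and length of adaptation are those of the labels, while the study's methods give the substrain C57BL/6JOlaHsd and a shorter adaptation. The baseline group (t=0) was sacrificed after the adaptation, at 0 weeks of intervention, the control group (HF) ate the same diet for 12 more weeks, and the quercetin group (HF-Q) ate it with 0.33% (w/w) quercetin, a plant flavonol, for those 12 weeks. Each array holds the Cy5-labelled RNA of a single mouse against a Cy3-labelled pool of the samples. HF and t=0 differ in age and in weeks on the diet, which cannot be told apart here, and a whole liver cannot show whether fewer cells of a type or less RNA per cell lies behind a lower value.

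The arrays held 56.4 to 67.4% of spots well above background in Cy5, except that of HF-Q replicate 2, which held 96.7%. The array of HF replicate 5 carried transcripts of exocrine pancreas, with a mean log2 value of 19.48 over 3 marker genes against at most 9.43 on the other arrays. For the brightest probes of the 10 genes, calls that change without either array are given with their values. Liver identity was clear in every library, with the 7 measured hepatocyte markers of a list of 8, such as Alb and Apoa1, well above background on all 36 arrays. Of the markers of other cell types, Pecam1 (endothelium) was called higher and Sox9 (bile duct) lower in HF-Q than in HF. The other endothelial markers were not called and differed in sign, Kdr (-0.05), Clec4g (-0.02), Stab2 (0.04) and Fcgr2b (0.12). The other bile duct markers were lower as well but not called. In HF against t=0, Hba-a1 (red blood cells, log2 difference 0.93), Sox9 (0.64), Krt19 (0.42) and Krt7 (0.29) of the bile duct and Colec11 (stellate cells, 0.19) were called higher, and Pecam1 (-0.34) and the hepatocyte gene Cps1 (-0.32) lower. Not called there were the red blood cell gene Alas2 (-0.14) and the other endothelial markers, from -0.05 (Stab2) to 0.09 (Kdr). In HF-Q against t=0, Hba-a1 (1.21, limma adjusted p = 4.05e-07) was called higher, and Alas2 (-0.26) of red blood cells and the hepatocyte genes Cps1 (-0.45) and Ttr (-0.33) lower. The part of these markers in the results was not tested. The mean log2 value of the 5 bile duct markers ranged from 8.86 to 9.62 at t=0, 9.25 to 9.95 in HF and 9.02 to 9.47 in HF-Q, and that of the 5 endothelial markers from 10.84 to 11.26 over all mice.

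All values below are log2 values of the processed table, which are relative to the reference pool and to the array, so they compare mice for 1 probe and not genes with each other. The value of a gene is that of its brightest probe. A difference was called when the adjusted p-value of limma, over all 21781 probes, was under 0.05. The 3 comparisons share their groups in pairs and are not independent of each other.

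**Figure D1:**
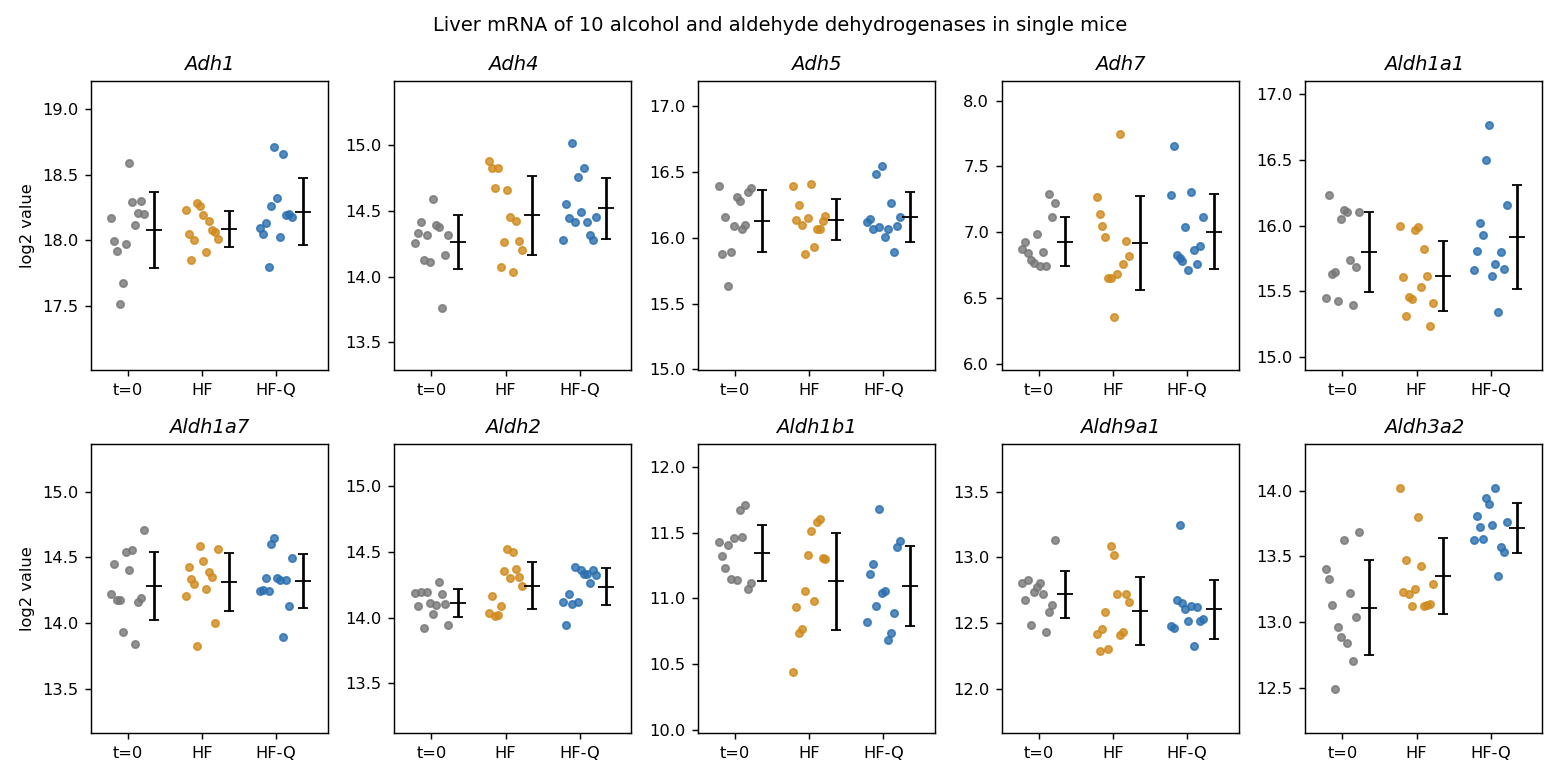
Log2 value of each of the 10 genes (1 panel each, brightest probe) in every mouse of the t=0, HF and HF-Q groups. Points are mice, bars are the mean ± SD (n = 12), and every panel spans the same log2 range. For Aldh3a2 all 12 HF-Q points lie above the HF median, and the groups overlap in every panel.

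Aldh3a2 encodes the fatty aldehyde dehydrogenase of the endoplasmic reticulum, which oxidises long-chain aldehydes, including those of the omega-oxidation route. It was the only gene of the 10 that was called higher in the quercetin group than in the control group, and it was also called higher than at baseline. In the t=0 group its log2 value lay between 12.49 and 13.69 with a median of 13.08. In HF mice it lay between 13.12 and 14.02 with a median of 13.24, and in HF-Q mice between 13.35 and 14.02 with a median of 13.73. The groups overlapped: 8 of 12 HF mice were below the lowest HF-Q mouse, and only 1 HF-Q mouse was above the highest HF mouse (replicate 1). The probe is listed at chromosome 11, 61060950 to 61060983 on the minus strand of build mm8. Its exon was not looked up, since no annotation of that build was used here.

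The promoter of Aldh3a2 is shown because this was the called gene. In RefSeq (build GRCm38.p6) the window chr11:61267137-61267436, minus strand, covers 250 bases before and 50 bases after an annotated start. The window lies inside the span of the gene, 61223417 to 61267528, so this start is not the outermost one. Capitals mark CACGTG, the E-box that is bound by the clock factors Clock and Arntl, 30 bases before the start. The motif reads the same on both strands and is in 7.15% of all 32851 promoter windows. Among the 11 windows found for 9 of the 10 genes, that of Adh1 also holds it, 4 bases after the start. The windows were also searched for the D-box, the nuclear receptor half-site and its direct repeat, and the CCAAT and TATA boxes. Of these the Aldh3a2 window holds only CCAAT, 13 bases before the start, which 37.4% of all windows hold. A role of any motif was not tested.
Aldh3a2: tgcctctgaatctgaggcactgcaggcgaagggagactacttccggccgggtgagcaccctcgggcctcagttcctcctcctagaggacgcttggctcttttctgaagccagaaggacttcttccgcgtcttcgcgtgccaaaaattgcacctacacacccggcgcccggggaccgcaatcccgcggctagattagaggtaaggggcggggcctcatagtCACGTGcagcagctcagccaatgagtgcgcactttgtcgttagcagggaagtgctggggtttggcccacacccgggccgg

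Aldh3a2 rose by 0.36 on the log2 scale in HF-Q against HF (standard error 0.095, 95% interval 0.17 to 0.56, 1.29-fold, limma adjusted p = 0.0378). The group means were 13.72 ± 0.19 and 13.35 ± 0.29 (SD, n = 12 each), and all 12 HF-Q mice were above the HF median. Over all probes 2.36% were called in this comparison, 1.49% as higher and 0.863% as lower, and 1 of the 10 genes was called. Within the 9 slides, each of which holds all groups, HF-Q was higher on 8, with differences from -0.07 to 0.73 and a median of 0.37.

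This difference was positive in all 40 other fits that were run, and whether it passed the threshold changed with single arrays and with the processing. Leaving out 1 mouse at a time kept the difference between 0.34 and 0.43 but moved the adjusted p between 0.0045 and 0.0664, and the call was lost in 15 of 24 such fits: without any of HF replicates 2, 4, 5, 6, 9, 10, 11 and 12 or HF-Q replicates 2, 3, 5, 6, 7, 8 and 12. The difference was 0.36 (limma adjusted p = 0.0578) without HF-Q replicate 2 alone and 0.34 (adjusted p = 0.0532) without HF replicate 5 alone. Without HF-Q replicate 2 and HF replicate 5 together, the difference was 0.34 (adjusted p = 0.0769, limma), and 0 of the 10 genes were called. HF replicate 5 had the lowest Aldh3a2 value of its group. With a loess-normalized ratio from the scanner files the difference was 0.39 (adjusted p = 0.00397), and 0.37 (adjusted p = 0.0106) without both arrays.

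**Figure D2:**
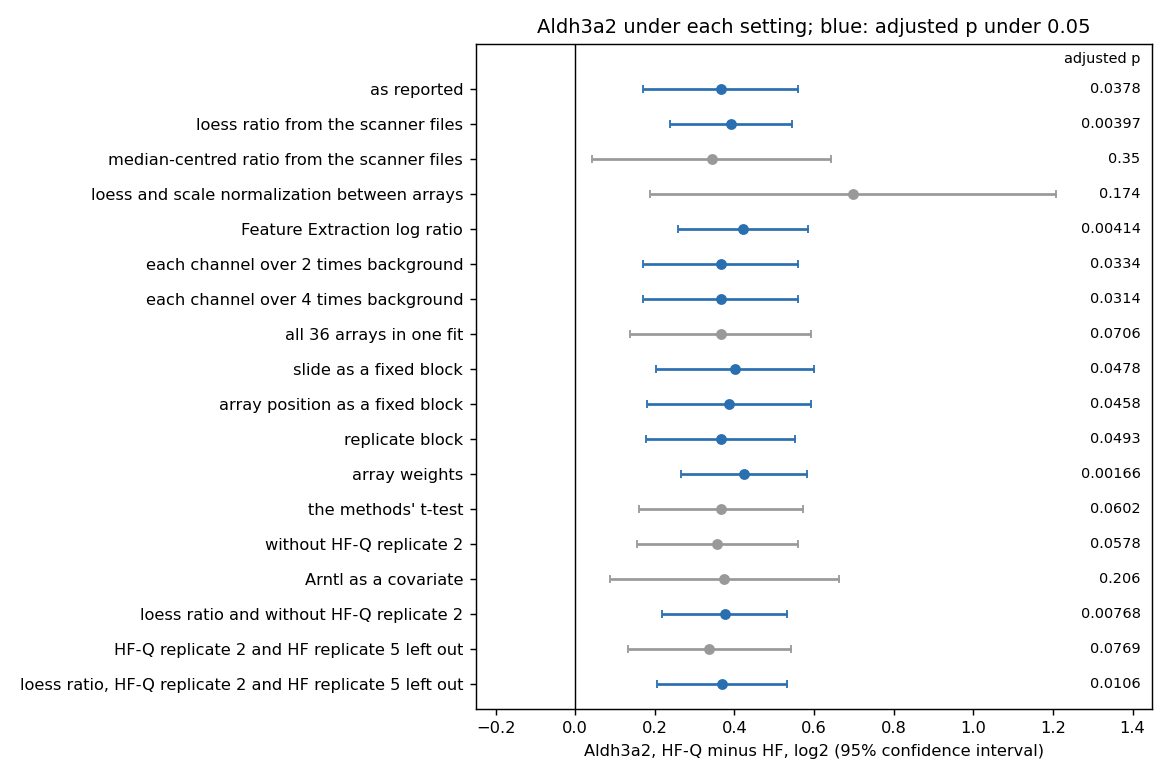
Difference of Aldh3a2 between HF-Q and HF (log2, x axis) under the reported setting and 17 other settings (rows), with 95% confidence intervals and the adjusted p at the right. All 18 differences lie above 0, and 11 have an adjusted p under 0.05 (blue).

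Against the baseline, Aldh3a2 rose by 0.61 in the quercetin group (standard error 0.11, 95% interval 0.38 to 0.83, 1.52-fold, limma adjusted p = 0.000793). The t=0 mean was 13.11 ± 0.36 (SD, n = 12), all 12 HF-Q mice were above the t=0 median, and 7 were above the highest t=0 mouse. In this comparison 11.9% of all probes were called, 6.62% as higher and 5.3% as lower, and 1 of the 10 genes. HF-Q was higher than t=0 on 9 of 9 slides, and the call held under all settings tried, with an adjusted p of at most 0.0365. The difference of HF against t=0 was 0.24 (95% interval -0.01 to 0.50, limma adjusted p = 0.163). All 12 HF mice were also above the t=0 median, and 6 t=0 mice were below the lowest HF mouse. The order of the means was thus t=0, HF and HF-Q, and the difference between t=0 and HF was not called.

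Aldh3a2 stands between the omega-hydroxylases and the enzymes that take up the dicarboxylic acids. Of 26 genes listed for these steps, 23 were measured. By limma 6 were called higher and 0 lower in HF-Q than in HF, beside 2.36% of all probes. On the hydroxylation side these were Cyp4a14 (log2 difference 2.74, adjusted p = 0.000241), Cyp4a31 (1.57, adjusted p = 0.00231), Cyp4a10 (1.31, adjusted p = 0.00172) and Por (0.98, adjusted p = 0.000785), which passes electrons to cytochromes P450. On the other side these were the acyl-CoA thioesterases Acot3 (1.25, adjusted p = 0.000398) and Acot4 (0.75, adjusted p = 0.000204), which release acids from coenzyme A. The peroxisomal oxidation enzymes Ehhadh (0.18, adjusted p = 0.264) and Hsd17b4 (0.14, adjusted p = 0.354) were not called. Acaa1a (0.27, adjusted p = 0.181), Acaa1b (0.25, adjusted p = 0.113) and Scp2 (-0.04, adjusted p = 0.836), listed for the same steps, were not called either. The median over the measured genes of the list was 0.14, and over all probes 0.01. The study had already reported Cyp4a14, Cyp4a10, Cyp4a31, Por and Acot3 as regulated on these same arrays. The list was drawn up with those results known, so its count and median are no separate support.

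The same 6 genes were called without HF-Q replicate 2 and HF replicate 5, and again with the loess ratio. In HF against t=0, 1 gene of the list was called higher (Acaa1b, 0.27) and 3 lower, of which Por (-0.59) and Acot3 (-0.40) had the largest differences. Cyp4f18 (-0.29) was the other. Over all probes 21.3% were called in this comparison. Acot3 was not called there without HF replicate 5, and with the loess ratio and without that array 0 were called higher and 5 lower, which left out Acaa1b and Acot3 and added Cyp4f13, Cyp4f14 and Cyp4f15. Por was thus lower in HF than at baseline and higher with quercetin than without it, while Aldh3a2 had positive differences in both comparisons, of which the first was not called. Between HF-Q and t=0, 6 genes were called higher and 1 lower, where 11.9% of all probes were called.

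**Figure D3:**
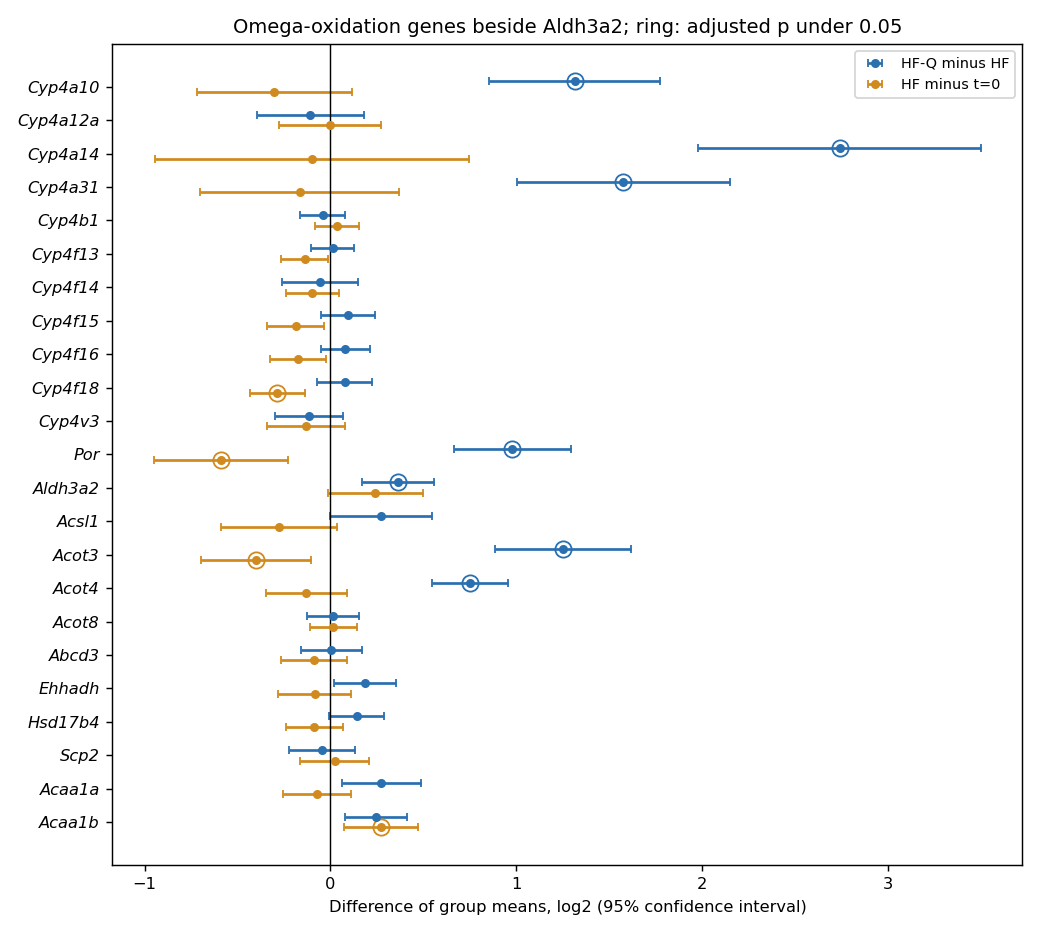
Log2 difference of group means (x axis, 95% confidence intervals) for Aldh3a2 and 22 of the 23 measured omega-oxidation genes (rows), with HF-Q minus HF in blue and HF minus t=0 in orange; rings mark an adjusted p under 0.05. In HF-Q against HF the ringed genes are Cyp4a10, Cyp4a14, Cyp4a31, Por, Acot3, Acot4 and Aldh3a2.

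Mice of 1 group also differed from each other in Aldh3a2, and these deviations were compared with those of other genes after the mean of each group was subtracted. Over the 36 mice Aldh3a2 varied most closely with 4931406C07Rik (r = 0.82), Acaa1b (r = 0.80) and Ces1f (r = 0.78), the 3 highest of 13041 genes. None of them was called between HF-Q and HF. Acaa1b, a peroxisomal thiolase, had a Spearman rho of 0.81 (permutation p = 1e-05 for both, the smallest that 100000 permutations can give; 0.00017 for r and 0.000227 for rho after adjustment over 68 relations). Without the 2 mice farthest from the Aldh3a2 median r was 0.82, with slide also taken out it was 0.80, and with the loess ratio it was 0.66. Within the groups r was 0.86 at t=0, 0.72 in HF and 0.80 in HF-Q.

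Hsd17b4, the peroxisomal multifunctional enzyme, followed with r = 0.76 and rho = 0.76 (both adjusted permutation p-values at most 0.000227), 0.70 without the 2 farthest mice and 0.57 with the loess ratio. Within the groups its r was 0.80 at t=0, 0.93 in HF and 0.48 in HF-Q. Of the 23 omega-oxidation genes, 14 passed the adjusted permutation test with Aldh3a2, all with positive r, and 8 of them also with the loess ratio. Cyp4a14, which had the largest difference between diets, had r = 0.25 (adjusted permutation p = 0.272), and Cyp4a10 r = 0.30 (adjusted permutation p = 0.148). A slide holds 4 arrays, too few for an r within slides.

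**Figure D4:**
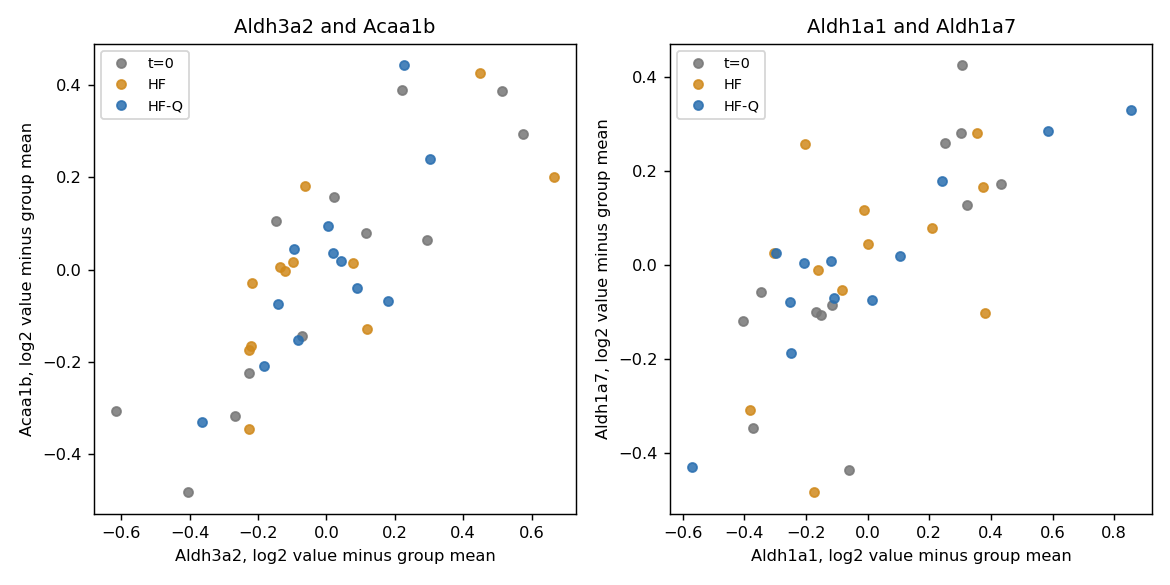
Deviation of each mouse from its group mean (log2) for Aldh3a2 and Acaa1b (left) and for Aldh1a1 and Aldh1a7 (right); each point is 1 of 36 mice, coloured by group. In both panels the points rise together, with r = 0.80 and r = 0.70.

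Genes of the circadian clock, which gives many liver genes a daily rhythm, also differed between the diets. Of 16 listed clock genes 14 were measured. With quercetin against control, 4 were called higher, among them the output regulators Dbp (0.92, limma adjusted p = 0.00741) and Tef (0.63, adjusted p = 0.00414), and 2 lower, Arntl (-0.998, adjusted p = 0.0034) and Clock (-0.46, adjusted p = 0.00437). Over all probes 2.36% were called. In HF against t=0, 1 was called higher and 2 lower (3 and 3 without HF replicate 5), where 21.3% of all probes were called. Between HF-Q and t=0 limma and the methods' t-test called 0, with 1 gene at an unadjusted p under 0.05, where limma called 11.9% of all probes. With the Arntl value of each mouse as a covariate the difference of Aldh3a2 between HF-Q and HF was 0.37 (adjusted p = 0.206, 1 probe called in all), and that between HF-Q and t=0 was 0.58 (adjusted p = 0.0019). Arntl itself differed between HF-Q and HF, so the first of these fits cannot separate diet from Arntl. Its standard error was 0.14, beside 0.095 without the covariate. A link of Aldh3a2 to the clock was not tested.

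The retinaldehyde dehydrogenase Aldh1a1 and its close rodent paralog Aldh1a7, which lies near it on chromosome 19, were not called in any comparison. Aldh1a1 had log2 values of 15.39 to 16.23 at t=0 (median 15.71), 15.23 to 15.99 in HF (median 15.57) and 15.34 to 16.77 in HF-Q (median 15.80). The groups overlapped widely, and 4 HF-Q mice were above the highest HF mouse. The difference of HF-Q against HF was 0.30 (95% interval 0.03 to 0.56, limma unadjusted p = 0.0292, adjusted p = 0.256), with 11 of 12 HF-Q mice above the HF median and HF-Q higher on 7 of 9 slides. Aldh1a7 lay between 13.84 and 14.70 at t=0, between 13.82 and 14.59 in HF and between 13.89 and 14.65 in HF-Q. Its medians were 14.21, 14.34 and 14.33, and its differences were 0.01 (95% interval -0.16 to 0.18), 0.03 and 0.04 in HF-Q against HF, HF against t=0 and HF-Q against t=0.

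Both genes nevertheless varied together among mice of 1 group, with r = 0.70 (permutation p = 1e-05, adjusted 0.00017) and rho = 0.68 (permutation p = 3e-05) over 36 mice. Without the 2 mice farthest from the Aldh1a1 median r was 0.66, with slide also taken out 0.71, with the loess ratio 0.65 and without HF-Q replicate 2 0.70. Within the groups it was 0.76 at t=0, 0.44 in HF and 0.89 in HF-Q. Their probes are listed in mm8 at chromosome 19, 20710371 to 20710430 on the plus strand (Aldh1a1) and 20760160 to 20760219 on the minus strand (Aldh1a7). The probe sequences were not used here, so whether each probe also binds the paralog's RNA was not tested.

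The promoters of this pair are shown because the genes varied together. The RefSeq windows (GRCm38.p6) are chr19:20601718-20602017, plus strand, for the second of the starts of Aldh1a1, and chr19:20727507-20727806, minus strand, for Aldh1a7. Capitals mark the longest run that both share without a difference, 65 bases beginning 94 bases before each start. A global alignment had 70.4% identical positions, the highest among all pairs of the 11 windows. The run holds CCAAT, 72 bases before each start, a motif that 37.4% of all windows hold on either strand.
Aldh1a1: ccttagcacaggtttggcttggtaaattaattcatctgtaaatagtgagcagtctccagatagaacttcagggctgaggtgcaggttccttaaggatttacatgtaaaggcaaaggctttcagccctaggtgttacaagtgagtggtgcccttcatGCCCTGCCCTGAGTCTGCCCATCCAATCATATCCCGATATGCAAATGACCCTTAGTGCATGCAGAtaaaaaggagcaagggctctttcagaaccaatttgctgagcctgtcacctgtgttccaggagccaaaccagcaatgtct
Aldh1a7: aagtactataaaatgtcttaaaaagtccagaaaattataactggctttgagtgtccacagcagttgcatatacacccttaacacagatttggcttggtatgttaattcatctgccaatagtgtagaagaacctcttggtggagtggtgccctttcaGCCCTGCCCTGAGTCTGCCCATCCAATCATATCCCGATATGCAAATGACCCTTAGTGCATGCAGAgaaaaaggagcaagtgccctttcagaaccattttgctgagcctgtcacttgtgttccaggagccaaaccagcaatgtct

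Of 29 genes listed for retinoid transport, retinol and retinaldehyde reduction or oxidation, and retinoid receptors, 24 were measured. Between HF-Q and HF, limma and the methods' t-test called 0 of them, with 6 at an unadjusted p under 0.05. The loess ratio without HF-Q replicate 2 and HF replicate 5 called 3 as higher, Dhrs4, Retsat and Cyp26b1. In HF against t=0 2 were called higher, Dhrs9 (0.59, adjusted p = 0.0113) and Rdh10 (0.23, adjusted p = 0.0222), and 2 lower, Rdh5 (-0.27, adjusted p = 0.00491) and Bco2 (-0.20, adjusted p = 0.0473). The last was not called without HF replicate 5, and these 4 of 24 genes compare with 21.3% of all probes. Rdh10 (0.30) and Retsat (0.41) were called higher and Rdh5 (-0.41) and Rxrb (-0.21) lower in HF-Q than at t=0, beside 11.9% of all probes.

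The alcohol dehydrogenases lie in a cluster on chromosome 3, with probes in the order Adh7, Adh1, Adh4 and Adh5 in mm8, and none was called between groups. Adh1, the main ethanol dehydrogenase of the liver, had log2 values of 17.51 to 18.59 at t=0 (median 18.14), 17.85 to 18.28 in HF (median 18.07) and 17.80 to 18.71 in HF-Q (median 18.19). Its difference of HF-Q against HF was 0.13 (95% interval -0.04 to 0.30, limma adjusted p = 0.458), and its second probe gave 0.12. In HF against t=0 the brighter probe gave 0.01 and the second -0.01, so their signs differed. The HF mice were within the range of the t=0 mice, and the 2 highest HF-Q mice were above all others of both groups fed for 12 weeks.

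Adh4, the class II enzyme, which also oxidises longer alcohols, had medians of 14.32 at t=0, 14.44 in HF and 14.45 in HF-Q. Its values ran from 13.76 to 14.59 at t=0, from 14.03 to 14.88 in HF and from 14.27 to 15.02 in HF-Q, so that 5 t=0 mice were below the lowest HF-Q mouse. In HF-Q against t=0 the difference was 0.26 (95% interval 0.08 to 0.43, limma adjusted p = 0.0513), with 10 of 12 HF-Q mice above the t=0 median. It had an adjusted p of 0.0448 and 0.0369 where only probes over 2 or 4 times background in both channels were tested, which lowers the number of probes and leaves the difference as it is. Among 24 fits that left out 1 mouse it was called in 5, with limma adjusted p from 0.0288 to 0.0911 over the 24. The difference was 0.20 in HF against t=0 (adjusted p = 0.147) and 0.05 in HF-Q against HF (adjusted p = 0.832). Within groups Adh4 varied with Aldh3a2 at r = 0.54 (permutation p = 0.00044, adjusted 0.00272) and rho = 0.56 (permutation p = 0.00042), with 0.56 without the 2 mice farthest from the Adh4 median. With the loess ratio r was 0.37 (adjusted permutation p = 0.1).

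Adh5, the glutathione-dependent formaldehyde dehydrogenase, had group means of 16.13 ± 0.24 (t=0), 16.14 ± 0.16 (HF) and 16.16 ± 0.19 (HF-Q) (SD, n = 12 each). The highest HF-Q mouse (replicate 6) reached 16.55 and the lowest t=0 mouse (replicate 4) 15.64. Its difference of HF-Q against HF was 0.02, with a 95% interval of -0.13 to 0.17. Adh7, the class IV enzyme of epithelia such as the stomach, was the dimmest of the 13 probes over its background, at 2.58 times background in Cy5, and was well above background on 35 of 36 arrays. It ranged from 6.74 to 7.29 at t=0, from 6.35 to 7.75 in HF and from 6.71 to 7.66 in HF-Q, and the highest HF-Q value was that of replicate 2. Its differences were 0.09 (95% interval -0.17 to 0.34), -0.01 and 0.08 in HF-Q against HF, HF against t=0 and HF-Q against t=0, and the first was 0.03 without HF-Q replicate 2 and had the opposite sign with the loess ratio (-0.01).

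The mitochondrial aldehyde dehydrogenases are Aldh2, which oxidises acetaldehyde, and its close relative Aldh1b1, and neither was called on its brightest probe. Aldh2 was between 13.92 and 14.27 at t=0, between 14.01 and 14.52 in HF and between 13.95 and 14.39 in HF-Q. The lowest HF-Q value was that of replicate 2. Its differences were 0.13 in HF against t=0 (limma unadjusted p = 0.0408, adjusted p = 0.123), 0.12 in HF-Q against t=0 (adjusted p = 0.136) and -0.01 in HF-Q against HF (95% interval -0.15 to 0.13). Without HF-Q replicate 2 the second of these was 0.15 and was called (adjusted p = 0.0444). Its dimmer probe had 0.18 in HF-Q against t=0 (adjusted p = 0.052), with all 12 HF-Q mice above the t=0 median. In HF-Q against HF the dimmer probe had 0.07 (limma adjusted p = 0.622), a sign opposite to that of the brighter probe.

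Aldh1b1 was between 11.07 and 11.71 at t=0, between 10.44 and 11.60 in HF and between 10.68 and 11.68 in HF-Q. Its differences were -0.22 in HF against t=0 (limma adjusted p = 0.174), -0.25 in HF-Q against t=0 (95% interval -0.46 to -0.05, adjusted p = 0.103) and -0.04 in HF-Q against HF (adjusted p = 0.917). Without HF-Q replicate 5 the second was -0.31 and was called (adjusted p = 0.0324). No t=0 mouse was below the lowest HF or the lowest HF-Q mouse. Aldh2 and Aldh1b1 varied together over the 36 mice, with r = 0.55 (permutation p = 0.00182, adjusted 0.00884) and rho = 0.54 (permutation p = 0.0015), with 0.59 without the 2 farthest mice, 0.67 with the loess ratio and 0.62 without HF-Q replicate 2. Within the groups r was 0.26 at t=0, 0.88 in HF and 0.20 in HF-Q and was thus highest in the HF mice, a difference between groups that was not tested. These values hold for the brighter Aldh2 probe only. On the dimmer probe HF replicate 1 was the highest HF mouse (10.44) and replicate 9 the lowest (9.99). For Aldh1b1 replicate 1 was the lowest HF mouse (10.44), so the probes disagree there. A correlation with the dimmer probe was not tested. Of all 45 pairs of the 10 genes, 10 passed the adjusted permutation test, 9 of them with positive r. With the loess ratio 4 passed, and the pairs that passed both ways were Aldh1a1 with Aldh1a7 and Aldh2 with Aldh1b1, each on its brightest probe.

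Aldh9a1 oxidises an aldehyde precursor of carnitine, the carrier of fatty acids into mitochondria. Its brightest probe had means of 12.72 ± 0.18 (t=0), 12.59 ± 0.26 (HF) and 12.61 ± 0.22 (HF-Q) (SD, n = 12 each), and a difference of -0.13 in HF against t=0 (95% interval -0.31 to 0.05, limma adjusted p = 0.304). The dimmer probe disagreed in its call: it was -0.21 in the same comparison (95% interval -0.36 to -0.06, adjusted p = 0.037), with 1 of 12 HF mice above the t=0 median. For quercetin against control the probes gave 0.01 and 0.10, neither of them called.

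Over the family as a whole few calls were made. In HF against t=0, limma called 0 of the 10 genes on their brightest probe and the methods' t-test 0, with 1 at an unadjusted p under 0.05, while 21.3% of all probes were called, 10.9% as higher and 10.4% as lower. The dimmer probe of Aldh9a1 would raise the count to 1. Of the 10 genes 2 had an unadjusted p under 0.05 in HF-Q against HF and 4 in HF-Q against t=0. The median difference of the 10 genes was 0.04 in HF-Q against HF, 0.01 in HF against t=0 and 0.10 in HF-Q against t=0, beside 0.01, -0.00473 and 0.01 over all probes. For HF-Q and HF the intervals of the 9 genes other than Aldh3a2 lay between -0.30 and 0.56, so differences of this size remained possible for some of them.

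**Figure D5:**
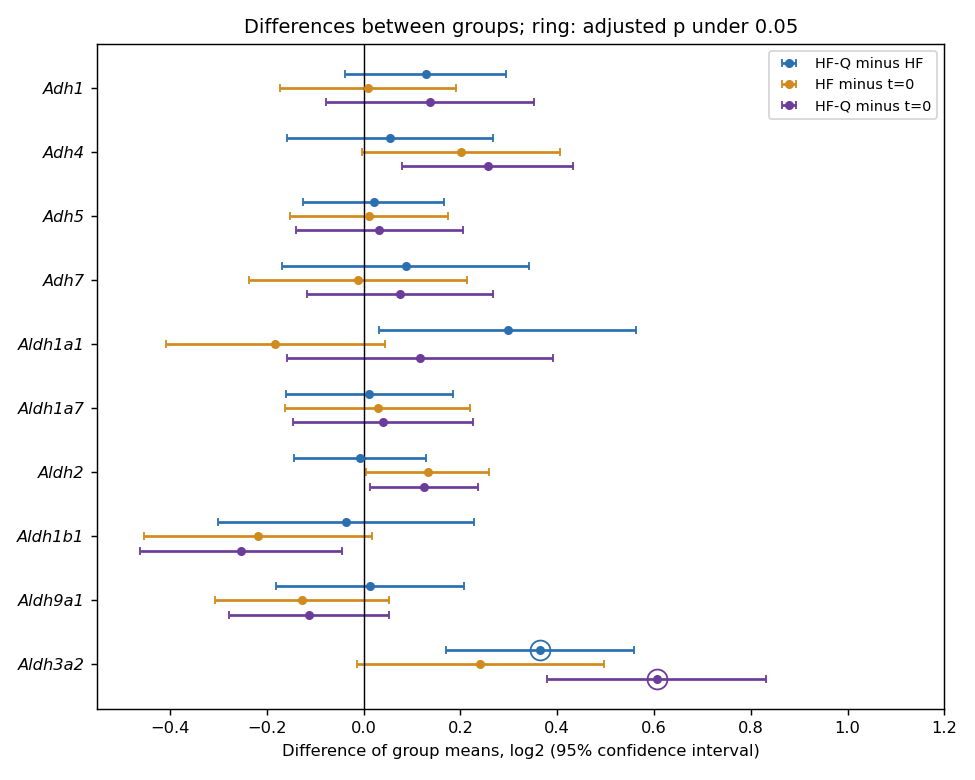
Log2 difference of group means (x axis) with 95% confidence intervals for the 10 genes (rows) in HF-Q minus HF (blue), HF minus t=0 (orange) and HF-Q minus t=0 (purple); rings mark an adjusted p under 0.05. Both ringed values are those of Aldh3a2, 0.36 and 0.61, and some intervals without a ring (Aldh1a1, Aldh2, Adh4, Aldh1b1) also leave out 0, since they are not adjusted for the number of probes.

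Among 27 further dehydrogenases and alcohol-oxidising enzymes 22 were measured. Between HF-Q and HF, limma and the methods' t-test called 0, with 4 at an unadjusted p under 0.05. With the loess ratio and without HF-Q replicate 2 and HF replicate 5, Cyp2e1, the ethanol-inducible cytochrome P450, was called higher. In HF against t=0, 3 were called higher, Aldh3b1 (0.33, adjusted p = 0.0115), Aldh16a1 (0.23, adjusted p = 0.0101) and the succinate semialdehyde dehydrogenase Aldh5a1 (0.23, adjusted p = 0.00295). Also in that comparison 3 were lower, Adhfe1 (-0.39, adjusted p = 0.00279), which oxidises hydroxybutyrate, Cyp2e1 (-0.36, adjusted p = 0.0156) and the folate enzyme Aldh1l1 (-0.26, adjusted p = 0.0217). These counts among 22 genes stand beside 21.3% of all probes called. Without HF replicate 5, 4 were called higher and 3 lower. With the loess ratio and without that array, 3 were called higher and 6 lower.

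In HF-Q against t=0, Aldh3b1 (0.35), the retinaldehyde dehydrogenase Aldh1a3 (0.29), Aldh5a1 (0.23) and Aldh16a1 (0.21) were called higher. The acetyl-CoA synthetase Acss2 (-0.57), Aldh1l1 (-0.38), Adhfe1 (-0.32) and the aldose reductase Akr1b3 (-0.19) were called lower. Over all probes 11.9% were called in this comparison. The medians of the 22 genes were 0.01 in HF-Q against HF, -0.01 in HF against t=0 and -0.00493 in HF-Q against t=0.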

How the data were processed

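Liver RNA of single mice (Cy5) was hybridised with a reference pool (Cy3) on 36 arrays of 9 slides. The authors quantified spots with Feature Extraction (10.5.1.1 per the file headers and the submitters' notes, while the study's methods give an earlier version). The deposited scanner files give median intensity values per channel and a log10 ratio. For 23256 spots that passed an expression limit, the authors also deposited a processed table with log2 values, in which Cy5 was normalized against Cy3. The details of that normalization are not given in the sources used here. Checked against the scanner files, its 837216 values differed by a median of 0.0192 from log2 Cy5 minus log2 Cy3 plus the mean log2 Cy3 of the spot, with each array centred on its median and no background subtracted.

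Values were joined to probes by spot number, control spots were left out and spots of a probe averaged. Probes were named by accession (16104), by another current name (3472) or not at all (2205 of 21781). Groups and replicate numbers came from the labels. Each pair of groups was compared with limma (lmFit, eBayes, two-sided, Benjamini-Hochberg over all probes). The text names all 10 genes with every probe, the called genes of the family list, up to 3 called genes with the largest difference of the other lists, and the 3 genes closest to the called gene over mice. Other genes named (further called or uncalled genes of the omega-oxidation, clock and retinoid lists) were chosen after their values were seen. The genes and lists were chosen with earlier results of these data known. Correlations used 100000 permutations of mice within groups.

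Alternatives changed the source of values (normexp with offset 50 and loess, median centring, scale normalization, the Feature Extraction ratio), the filter on dim probes (2 or 4 times background), the test, covariates and arrays. The fit was tested on simulated data. The values of 1 gene of the omega-oxidation list are not reported here. The number of arrays limits the precision, and mice are separate animals. The analysis used R 4.3.3, limma 3.58.1, data.table version 1.17.8, statmod 1.5.0, Python 3.11.15, Biopython 1.88 (global alignments with affine gaps) and matplotlib 3.10.9.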

Additional observations from a re-analysis of the deposited data

How the results depend on the processing

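No result reversed with a call on either side. In HF-Q against HF the Aldh3a2 difference and adjusted p were 0.34 and 0.35 with median-centred ratios, 0.70 and 0.174 with loess and scale normalization, 0.36 and 0.0706 with all 36 arrays in one fit, 0.36 and 0.0602 with the methods' t-test, 0.37 and 0.206 with Arntl as a covariate, and 0.34 and 0.0769 without HF-Q replicate 2 and HF replicate 5 (chosen after seeing the data). The number of the 10 genes called was 0 in each of these and 1 in the reported fit, and 0 to 1 when 1 mouse was left out. It was also 1 in HF against t=0 when any probe of a gene could count. In HF-Q against t=0 it was 2 with either filter on dim probes and with array weights, and 1 to 2 without 1 mouse; in HF against t=0 it was 0 without any 1 mouse.

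Over all probes the number called in HF-Q against HF was 513, and 77 with median-centred ratios, 306 with loess and scale normalization, 210 with slide as a block, 804 with array weights, 1 with Arntl as a covariate and 358 to 614 without 1 mouse. For HF against t=0 it was 4645, 3012 with each channel over 4 times background and 3988 to 5235 without 1 mouse. For HF-Q against t=0 it was 2596, 396 with median-centred ratios, 4220 with array weights and 1971 to 3200 without 1 mouse. The cause of these shifts was not tested. Without 1 mouse the Aldh3a2 difference was 0.34 to 0.43 in HF-Q against HF, 0.18 to 0.29 in HF against t=0 and 0.55 to 0.66 in HF-Q against t=0. Of the member pairs, 10 passed the adjusted permutation test, 4 with the loess ratio and 10 without HF-Q replicate 2.

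Mice with the same replicate number were not paired: residuals of same-numbered mice had a median correlation of -0.0097 (HF-Q and HF), 0.061 (HF and t=0) and 0.033 (HF-Q and t=0), and 3, 4 and 4 of 12 pairs exceeded 0.1. With the replicate block, Aldh3a2 had an adjusted p of 0.0493 in HF-Q against HF and 0.0027 in HF-Q against t=0, the number of genes called stayed at 1, 0 and 1, and 360 probes were called in HF-Q against HF. Signal over background limits Adh7 most.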

Other observations

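The 14th probe found for the 10 genes carries the name Adh1 and is listed on chromosome 3, 138219447 to 138219506 of mm8, on the strand opposite to the gene. It lay at 1.69 times background in Cy5, is not among the expressed spots of the processed table, and entered no comparison.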
